A study of Homo sapiens with 6 samples.

Results

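The genes described here make the folding and quality control machinery of the endoplasmic reticulum (ER). They were taken as the rows of the authors' deposited table whose symbol was 1 of 48 chosen names, and 44 of the 25287 genes in the table matched. They were sorted by role into 4 arms, with 9 stress sensors and their factors, 14 chaperones and prolyl isomerases, 9 disulfide isomerases and oxidases, and 12 genes of ER-associated degradation. FKBP14, TXNDC5 and ERLEC1 had no row and were not analysed here, and VIMP is an older name of SELENOS, which was listed.

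RNA labelled as total RNA was sequenced from the human cell line NCI-H1299, labelled lung adenocarcinoma, in 2 groups of 3 libraries. One group, shControl in the sample names, carried a control short hairpin RNA, and the other, shALDH18A1, a hairpin against ALDH18A1, the gene of the proline synthesis enzyme P5CS. The series' design text pairs the hairpin arm with one named puro and speaks of a translation analysis, and the library protocol names RIP-seq (sequencing of RNA bound by a protein), so which RNA fraction was sequenced is not settled by the labels. Both groups are the same line in the same medium, and the labels do not say whether the replicates were separate cultures or whether each arm was a pool or a clone. The authors' deposited table compares the groups. For each gene it holds 1 mean normalized count, 1 log2 fold change and its standard error (SE), and values and depths of single libraries were not analysed here. The p-values may therefore measure technical spread only.

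Its headers do not say which group is the numerator. ALDH18A1 itself lay at -0.08 in the authors' deposited table (SE 0.07, DESeq2 adjusted p = 0.471), so it does not show the direction. Its mean count was 2661 and the confidence interval of its log2 fold change ran from -0.22 to 0.07. A clear depletion of the hairpin's target was thus not visible in this RNA in either group. Whether the differences described here follow from loss of ALDH18A1 was not tested. Genes above 0 are called positive and genes below 0 negative, and neither side is assigned to a group. Epithelial keratin genes KRT8 and KRT18 had mean counts of 18965 and 14244 in the authors' deposited table, whereas EPCAM and CDH1 had 41.4 and 24.2, SFTPB had 4.49, and NKX2-1, NAPSA and SFTPC had no row. Some markers differed between the groups, with KRT8 at 0.32, KRT18 at 0.61, FN1 at 1.10, PECAM1 at 2.53 (mean count 116) and PDGFRB at 1.12 (mean count 164) positive and VIM at -0.48 negative in the authors' deposited table. The keratin gene KRT7 and the mesenchymal marker CDH2 lay below 0 and did not pass, so neither set of markers moved as a whole. Their mean counts were 16.9 and 3947 in the authors' deposited table (DESeq2 adjusted p = 0.210 and 0.288). PTPRC, with a mean count of 12.8, and COL1A1, with 95.8, did not pass, and CD3E and CD68 had no row. The part of all these markers in the values of the ER genes was not tested. In bulk RNA, more cells with a transcript and more transcript per cell cannot be told apart.

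Proteins that enter the ER are folded by chaperones, receive disulfide bonds from isomerases that oxidases recharge, and are sent back to the cytosol for destruction if folding fails. Sensors in the ER membrane respond to misfolded protein. IRE1 (ERN1) splices the mRNA of the transcription factor XBP1, PERK (EIF2AK3) slows translation, and ATF6 is cut by the proteases MBTPS1 and MBTPS2 to release a transcription factor. Secretory tumour cells depend on this response, and its best known DNA element, the ER stress response element (ERSE), was defined in promoters of chaperone genes that are among those described here.

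The promoters are shown because they carry the elements through which ATF6 and XBP1 are known to act. ERSE was searched as CCAAT and CCACG with any 9 bases between them, a second form, ERSE-II, as ATTGG and CCACG with any 1 base between them, the unfolded protein response element (UPRE) as TGACGTGG and the cyclic AMP response element (CRE) as TGACGTCA, on both strands of the 300 bases from 250 before to 50 after each RefSeq start (GRCh38.p14). RefSeq promoters were at hand for 41 of the 44 genes. An exact ERSE was found in 8 of these 41 (19.5%) and in 17 of 14109 genes of the table with a promoter (0.12%). These 8 are CALR, CANX, CRELD2, ERO1B, HSP90B1, HSPA5, PDIA6 and XBP1. Each ERSE is shown in capitals with 10 flanking bases (7 before it in ERO1B, where the window ends), 5′ to 3′ on the gene's strand. Capitals that begin with CGTGG hold the element on the other strand.
HSPA5 (chr9:125241381-125241419, minus strand): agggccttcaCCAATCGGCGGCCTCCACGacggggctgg
HSP90B1 (chr12:103930206-103930244, plus strand): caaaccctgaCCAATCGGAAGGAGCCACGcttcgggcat
HSP90B1 (chr12:103930311-103930349, plus strand): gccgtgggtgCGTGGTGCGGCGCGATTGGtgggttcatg
CALR (chr19:12938374-12938412, plus strand): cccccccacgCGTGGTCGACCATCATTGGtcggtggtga
CANX (chr5:179698768-179698806, plus strand): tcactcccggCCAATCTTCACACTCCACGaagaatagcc
PDIA6 (chr2:10812843-10812881, minus strand): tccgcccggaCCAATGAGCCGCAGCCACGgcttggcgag
XBP1 (chr22:28800593-28800631, minus strand): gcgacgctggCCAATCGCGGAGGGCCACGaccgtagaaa
CRELD2 (chr22:49918544-49918582, plus strand): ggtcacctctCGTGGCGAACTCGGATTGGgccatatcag
ERO1B (chr1:236282173-236282208, minus strand): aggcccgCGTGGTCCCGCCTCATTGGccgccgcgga
Coordinates include the flanks. The HSPA5 element starts 66 bases before the RefSeq start. Distances from the start in the others range from 9 bases in 1 of the CANX starts to 243 bases in ERO1B.

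ERSE-II was present in 3 of the 41, HERPUD1, HYOU1 and SDF2L1, and in 15 of the 14109 genes (0.106%). UPRE was present in DNAJC10, HYOU1 and TXNDC11 (7.32% of the 41, against 1.13% of the 14109 genes), and CRE in CREB3L2 alone (2.44% against 3.25%). HYOU1 is printed in full because it holds 3 matches, of which the UPRE and the first ERSE-II overlap.
HYOU1 (chr11:119057156-119057455, minus strand): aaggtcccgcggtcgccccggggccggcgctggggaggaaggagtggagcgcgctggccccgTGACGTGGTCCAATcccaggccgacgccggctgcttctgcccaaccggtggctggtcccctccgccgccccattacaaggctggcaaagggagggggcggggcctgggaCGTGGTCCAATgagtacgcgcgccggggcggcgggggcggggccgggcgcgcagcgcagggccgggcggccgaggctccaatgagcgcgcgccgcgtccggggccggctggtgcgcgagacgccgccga
HERPUD1 (chr16:56932015-56932045, plus strand): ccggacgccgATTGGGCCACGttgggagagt
SDF2L1 (chr22:21642104-21642134, plus strand): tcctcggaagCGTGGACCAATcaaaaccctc
A match describes letters only, and its absence from this window says nothing of a factor.

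Most of the ER genes lay on the positive side. On either side, 39 of the 44 passed, against 42.4% of all genes and 83.3% of the 5706 genes whose mean count reached 1000. At a DESeq2 adjusted p of 0.05, the authors' deposited table had 38 of the 44 as positive, against 20.9% of all 25287 genes. It had 1 as negative, against 21.5%, and 5 did not pass. Their median log2 fold change was 0.75, against 0.03 for all genes. Of those 5706 abundant genes, 33.2% were positive and 50% negative, and their median was -0.19. A positive call with a log2 fold change of 1 or more was made for 16 of the 44, against 10.9% of all genes and 12.1% of the abundant ones. The single negative call was DNAJB9, and EIF2AK3, CRELD2, FKBP2, OS9 and DERL3 did not pass. FKBP2, OS9, DERL1 and DERL3 had mean counts of 5.81 to 42.7 in the authors' deposited table, and no other of the 44 was below 220.1. Without these 4, 37 of 40 passed on the positive side. The symbols were chosen with earlier results of these data known, so these counts describe the list and are no independent support for its direction.

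**Figure D1:**
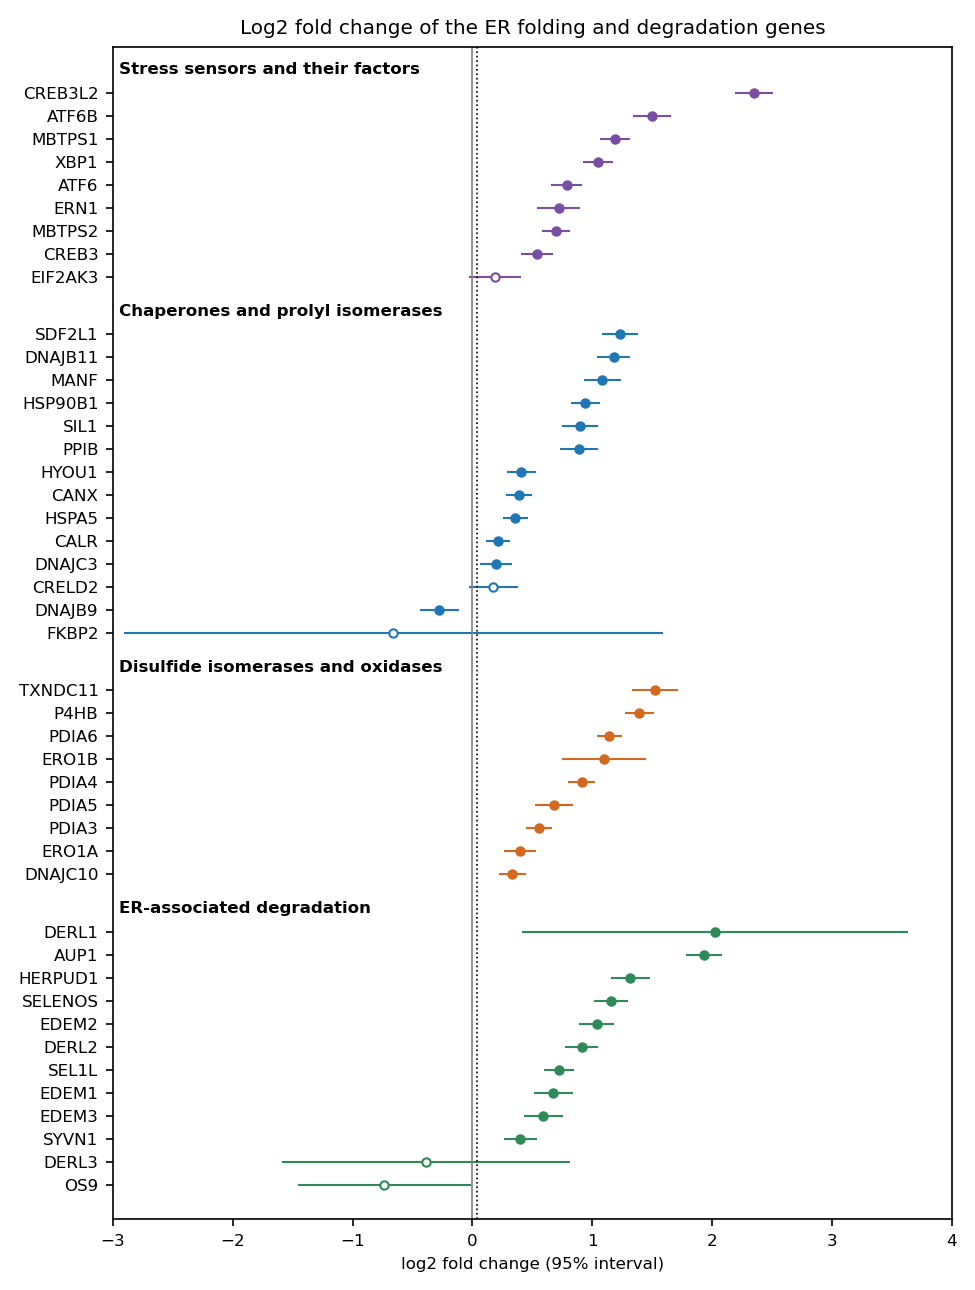
Log2 fold change (horizontal axis) with its 95% interval for each of the 44 genes, sorted within the 4 arms. Filled points passed an adjusted p of 0.05, the solid line marks 0 and the dotted line the median of all genes (0.03). Points run from -0.73 (OS9) to 2.35 (CREB3L2), and the widest intervals belong to FKBP2, DERL1, DERL3 and OS9.

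Over the whole table the side of a gene went with hydrophobic segments of its protein, whose part in the values of the ER genes was not tested. A segment was any stretch of 19 residues whose Kyte-Doolittle hydropathy averaged 1.6 or more, as in many signal peptides and membrane spans. It was found in 34 of the 44 proteins. Of the 5598 coding genes of the table with one, 37.2% passed on the positive side, and of the 1855 abundant ones among these, 59.2% did. The 34 had 29 on the positive side (85.3%) and a median of 0.72, against 0.41 for those 1855 genes. The other 10 had 9 on the positive side and a median of 1.04, whereas the 3556 abundant genes without a segment had 19.2% and a median of -0.37. Those 10 are XBP1, DNAJC3, MANF, CRELD2, P4HB, PDIA5, PDIA6, ERO1A, HERPUD1 and EDEM2. Several of them, such as P4HB and MANF, are known to have a signal peptide, so the window misses some proteins of the ER lumen. In HSPA5, a protein of the lumen, the first passing window starts 241 residues from the end of 654. A segment is thus not always a signal peptide or a membrane span.

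Among the sensors and their factors, 8 of 9 passed as positive, against 20.9% of all genes and 33.2% of the abundant ones. None passed as negative, against 21.5% of all genes, and the median of the 9 was 0.79. CREB3L2, a membrane-bound transcription factor of secretory cells, had the largest value at 2.35 (SE 0.08, adjusted p = 2.8e-180) and a mean count of 2093 in the authors' deposited table. With equal group sizes assumed, that mean and fold change correspond to 3500 normalized counts in one group and 687 in the other, a 5.09-fold difference. Its relative CREB3 lay at 0.54 (SE 0.07) by the authors' deposited table, and the 95% intervals of the pair do not overlap. Per kilobase of exon the order was the reverse, with a mean of 2302 normalized counts for CREB3 and 238 for CREB3L2. CREB3 shares 10.5% of its exon bases with TLN1 and GBA2 on the opposite strand, and CREB3L2 shares none. TLN1 had a mean count of 14743 and lay at -0.94, and GBA2 lay at -0.52, in the authors' deposited table. The part of this overlap in either difference was not tested. CREB3L2 is also the gene whose promoter holds the CRE.

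The protease MBTPS1, which makes the first cut in ATF6, lay at 1.19 (SE 0.06, adjusted p = 3.4e-76) by the authors' deposited table. MBTPS2, which makes the second, lay at 0.70 (SE 0.06). ATF6B, the less potent relative of ATF6, lay at 1.50 (SE 0.08, adjusted p = 2.2e-74) and ATF6 at 0.79 (SE 0.06) by the authors' deposited table, again with intervals apart. Both ATF6 genes and both proteases were thus positive, the estimated groups being 4505 and 1591 normalized counts for ATF6B and 5598 and 3248 for ATF6. ATF6B shares 9.92% of its exon bases with neighbours, among them TNXB, which lay at -1.21 in the authors' deposited table.

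In the IRE1 branch, XBP1 lay at 1.05 (SE 0.06, adjusted p = 1.4e-58) and ERN1 at 0.72 (SE 0.09) by the authors' deposited table. XBP1 was estimated at 5653 normalized counts in one group and 2731 in the other. Gene counts do not show whether its mRNA was spliced. PERK stood apart from both. EIF2AK3 lay at 0.19 (SE 0.11, adjusted p = 0.171), with a 95% interval of -0.03 to 0.40, in the authors' deposited table. That interval lies below those of ERN1 (0.54 to 0.90) and ATF6 (0.66 to 0.91).

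The chaperone arm had the lowest median, 0.40. It had 11 of 14 on the positive side, against 20.9% of all genes and 33.2% of the abundant ones. It had 1 on the negative side, against 21.5% of all genes, and 2 that did not pass. Its most abundant genes had small values. HSPA5, the central chaperone of the ER lumen, had a mean count of 58959 and lay at 0.36 (SE 0.05) by the authors' deposited table. The lectin chaperones CANX, with a mean count of 56398, and CALR, with 42438, lay at 0.39 (SE 0.06) and 0.21 (SE 0.05) by the authors' deposited table. These correspond to 66238 and 51681 normalized counts in the 2 groups for HSPA5, 63980 and 48816 for CANX, and 45585 and 39291 for CALR. CALR, HSPA5 and CANX were also the 3 highest of the 44 per kilobase of exon, at 15637, 15087 and 9045 normalized counts.

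DNAJB11, SDF2L1, MANF and HSP90B1 had larger values than HSPA5. DNAJB11, a cochaperone that hands it unfolded protein, lay at 1.18 (SE 0.07, adjusted p = 5.3e-59) by the authors' deposited table. SDF2L1, the partner of DNAJB11, lay at 1.23 (SE 0.08, adjusted p = 5.7e-57) and MANF, which binds HSPA5, at 1.09 (SE 0.08, adjusted p = 1.9e-41) by the authors' deposited table. The ER member of the HSP90 family, HSP90B1, lay at 0.94 (SE 0.06, adjusted p = 5.4e-54) by the authors' deposited table. For SDF2L1 these values correspond to 2758 and 1173 normalized counts, for DNAJB11 to 3615 and 1598, for MANF to 4518 and 2130, and for HSP90B1 to 20900 and 10872. The lower 95% limits of all 4, from 0.83 for HSP90B1 to 1.08 for SDF2L1, lie above the upper limits of HSPA5, CANX and CALR, of which 0.50 for CANX is the highest.

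The 2 nucleotide exchange factors of HSPA5 differed. SIL1 lay at 0.90 (SE 0.08) and HYOU1 at 0.41 (SE 0.06) by the authors' deposited table, with intervals that do not overlap. The cochaperone genes were spread as well, since DNAJC3 lay at 0.20 (SE 0.07, adjusted p = 0.0103) and DNAJB9 at -0.28 (SE 0.08, adjusted p = 0.00274) by the authors' deposited table. DNAJB9, which binds IRE1 and substrates of degradation, was thus estimated at 1560 normalized counts in the group where DNAJB11 had 3615, and at 1890 in the other. PPIB, the cyclophilin of the ER, lay at 0.89 (SE 0.08) by the authors' deposited table. CRELD2, a secreted protein of ER stress, lay at 0.17 (SE 0.10, adjusted p = 0.185), and the isomerase gene FKBP2, at a mean count of 5.81, at -0.66 (SE 1.15, adjusted p = 0.716) by the authors' deposited table. With fold changes shifted by 0.12 to equal total counts in the groups, CALR (0.10, adjusted p = 0.116) and DNAJC3 (0.08, adjusted p = 0.387) did not pass.

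**Figure D2:**
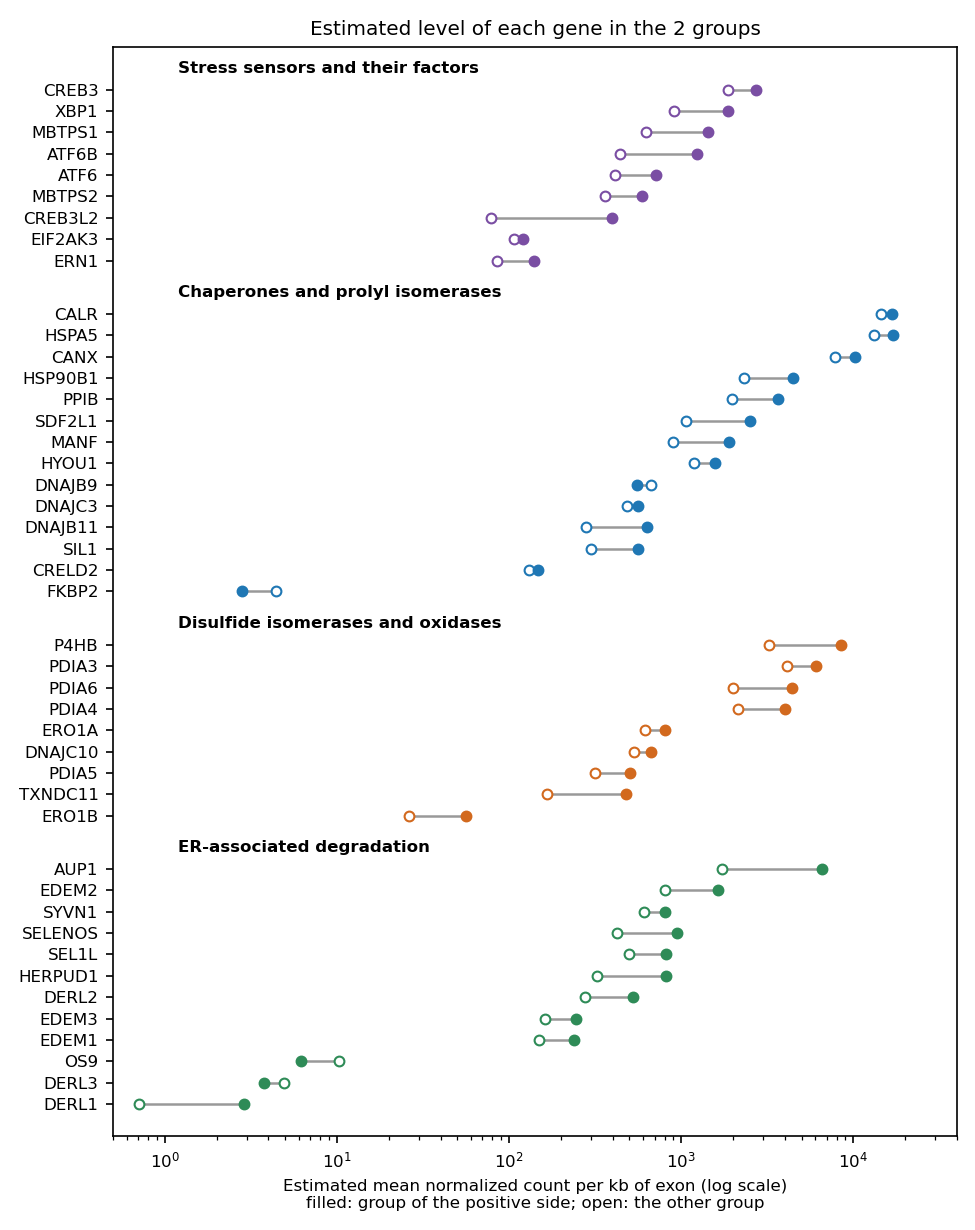
Estimated mean normalized count per kilobase of exon (log scale) of each gene in the 2 groups, with equal group sizes assumed. Filled points are the group of the positive side and open points the other group. CALR and HSPA5 sit highest with short gaps, while CREB3L2, AUP1 and P4HB show wide gaps, and the order of the points is turned in DNAJB9, FKBP2, OS9 and DERL3.

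All 9 listed disulfide isomerases and oxidases passed on the positive side, against 20.9% of all genes and 33.2% of the abundant ones. The median of the 9 was 0.91. P4HB, the protein disulfide isomerase that is also a subunit of collagen prolyl hydroxylase, lay at 1.39 (SE 0.06, adjusted p = 1.1e-112) by the authors' deposited table. It was estimated at 44998 normalized counts in one group and 17134 in the other. PDIA6 lay at 1.14 (SE 0.05, adjusted p = 6.2e-106) and PDIA4 at 0.91 (SE 0.06, adjusted p = 5.6e-56) by the authors' deposited table. TXNDC11, a membrane thioredoxin protein with lower counts (mean 1381), lay at 1.52 (SE 0.10, adjusted p = 6.1e-54) by the authors' deposited table.

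PDIA3, which serves glycoproteins held by CALR and CANX, lay at 0.56 (SE 0.06) by the authors' deposited table, below the intervals of P4HB, PDIA4 and PDIA6. PDIA5 lay at 0.68 (SE 0.08), and DNAJC10, a reductase that opens disulfides of degradation substrates, at 0.33 (SE 0.06) by the authors' deposited table. The oxidases that recharge the isomerases differed in level and in value. ERO1B lay at 1.10 (SE 0.18) and ERO1A at 0.40 (SE 0.07) by the authors' deposited table, with intervals apart, but ERO1A had 17.3 times the mean count of ERO1B per kilobase of exon. ERO1B holds an ERSE in its promoter window, and ERO1A had no exact match of the 4 motifs. The part of the element in this difference was not tested.

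**Figure D3:**
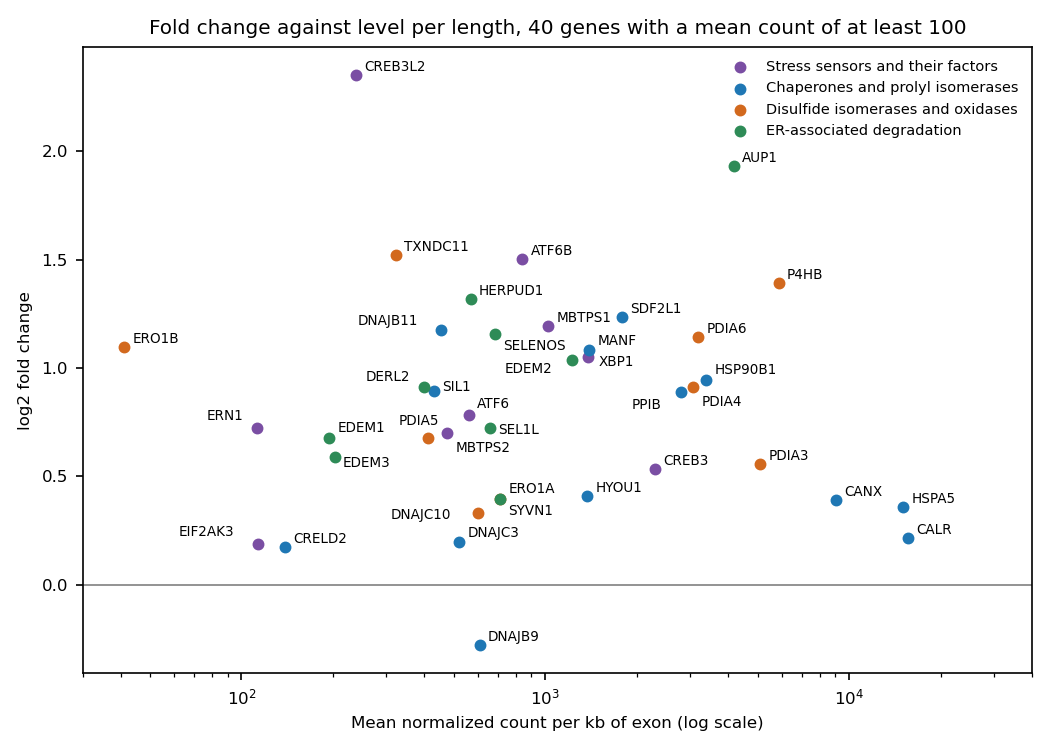
Log2 fold change (vertical axis) against the mean normalized count per kilobase of exon (log scale) for the 40 genes whose mean count reached 100, coloured by arm. The 3 genes farthest right, CANX, HSPA5 and CALR, lie between 0.21 and 0.39, whereas P4HB and AUP1 combine a high level with values of 1.39 and 1.93.

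Of 12 degradation genes 10 were positive, against 20.9% of all genes and 33.2% of the abundant ones. None was negative, against 21.5% of all genes, and the median of the 12 was 0.82. AUP1, which brings a ubiquitin-conjugating enzyme to the ligase and also coats lipid droplets, lay at 1.93 (SE 0.08, adjusted p = 5.9e-144) by the authors' deposited table. Its estimated levels were 17407 and 4562 normalized counts. HTRA2, on the opposite strand, shares 18.3% of the exon bases of AUP1 and lay at 0.46 in the authors' deposited table, and the sources used here do not give whether counting used strand. HERPUD1, an adaptor of the ligase complex, lay at 1.32 (SE 0.08, adjusted p = 8.5e-58), and SELENOS, a selenoprotein that docks the extraction ATPase, at 1.16 (SE 0.07, adjusted p = 2.6e-56) by the authors' deposited table. HERPUD1 was estimated at 4182 and 1676 normalized counts and SELENOS at 3547 and 1589.

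The core of the ligase had smaller values. SEL1L lay at 0.72 (SE 0.06) and its partner, the ubiquitin ligase SYVN1, at 0.40 (SE 0.07) by the authors' deposited table, with intervals apart. SYVN1 shares 10.1% of its exon bases with neighbours, and SEL1L shares none. Among those neighbours is FAU, which had a mean count of 6741 and lay at 0.15 in the authors' deposited table. The 3 EDEM genes, which trim mannose from misfolded glycoproteins, were all positive. EDEM2 lay at 1.04 (SE 0.08, adjusted p = 2.7e-41), EDEM1 at 0.68 (SE 0.08) and EDEM3 at 0.59 (SE 0.08) by the authors' deposited table. The interval of EDEM2 lies above those of EDEM1 and EDEM3, which overlap. Per kilobase of exon EDEM2 also had the highest level of the 3, at 1220 normalized counts, against 194 for EDEM1 and 203 for EDEM3.

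Of the derlin genes, whose products take part in the exit from the ER, DERL2 had most of the counts in this table. It had a mean of 2552 and lay at 0.91 (SE 0.07) by the authors' deposited table. DERL1, with a mean of 12.7, lay at 2.03 (SE 0.82, adjusted p = 0.0336) and DERL3, with 16.5, at -0.39 (SE 0.61, adjusted p = 0.685) by the authors' deposited table, so their intervals span several log2 units and overlap that of DERL2. Exons of DERL3 share 77% of their bases with SMARCB1 on the opposite strand. The glycan lectin gene OS9, with a mean of 42.7, lay at -0.73 (SE 0.37, adjusted p = 0.0992) by the authors' deposited table. OS9, DERL1 and FKBP2 had 1.79 to 8.25 normalized counts per kilobase of exon, and the sources used here do not give how overlapping annotations were counted. As background, OS9 and DERL1 are broadly expressed in human cells, so these counts are unexpectedly low and are not read as their expression. Without genes of a mean count under 100, 9 of 9 degradation genes were positive.

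By fold change and mean count, with equal group sizes assumed, the 44 genes made up 1.01% of all counts in the group of the positive side and 0.695% in the other. Summed over all genes of the table, the groups differed 1.09-fold toward the positive side. Summed over the genes of an arm, they differed 2.20-fold for degradation, 2.02-fold for the sensors, 1.86-fold for the isomerases and 1.34-fold for the chaperones. Single genes weigh on these sums, which were 1.77-fold for degradation without AUP1, 1.92-fold for the sensors without MBTPS1, 1.61-fold for the isomerases without P4HB and 1.36-fold for the chaperones without HSPA5, each the gene of the highest count, left out after values were seen. HSPA5, CANX and CALR, singled out after their values were seen, held most of the chaperone sum and differed 1.26-fold, while the other 11 chaperone genes differed 1.67-fold.

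Values of genes with and without an ERSE overlapped. The 8 genes with an exact ERSE had 7 on the positive side and a median of 0.67, and the 33 without had a median of 0.79. The 8 ranged from 0.17 for CRELD2 to 1.14 for PDIA6 in the authors' deposited table. Of all 17 genes of the table with an exact ERSE 64.7% were positive, against 25.1% of genes with a promoter but no exact ERSE. These 17 include the 8 ER genes, chosen with earlier results known, so that share is no independent support. The 9 of the 17 outside the ER list include FRG2, NLRP4 and GLRA2, which were named after their values were seen. These had mean counts of 2.49 to 57.8 and SE of 0.37 to 1.63 in the authors' deposited table, and did not pass. Among all 9, 4 were positive and 1 negative, and the median of 0.71 is the value of TRIM5 (mean count 71.7, SE 0.29). They include, named after their values were seen, ALG12 (1.36, SE 0.11), which shares its promoter region with CRELD2, SERP1 (1.03, SE 0.07), which protects membrane proteins in ER stress, and FICD (0.21, SE 0.11, adjusted p = 0.0989), which modifies HSPA5, in the authors' deposited table. The 3 ERSE-II genes of the ER list lay at 1.32 (HERPUD1), 1.23 (SDF2L1) and 0.41 (HYOU1) by the authors' deposited table. Of the other 12 genes with an ERSE-II, 4 were positive and 3 negative, and the median was 0.01. All 15 together were positive in 46.7%, against 25.1% of genes with a promoter but no ERSE-II. These 15 include the 3 of the ER list, to which the same limit applies.

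Other ER genes, from lists of 93 further names of which 82 had a row, gave the counts below by role. As background, 20.9% of all genes and 33.2% of the abundant ones passed on the positive side. Of abundant genes with a hydrophobic segment, 59.2% did. Most of the 82 have such a segment, and of the 58 that do, 47 were positive. The part of the segment in the counts below was not tested. All 10 genes of the glycoprotein folding cycle passed on the positive side, with the smallest adjusted p for MLEC, a lectin for glucosylated glycans (2.37, SE 0.06), and the glucosidase gene MOGS (1.28, SE 0.08), by the authors' deposited table. Of 16 further oxidoreductases 12 were positive and none negative, with the smallest adjusted p for SELENOF (1.79, SE 0.08) and TMX3 (1.54, SE 0.07) in the authors' deposited table. Of 17 further chaperones and prolyl isomerases 14 were positive, with the smallest adjusted p for the prolyl isomerases FKBP9 (2.83, SE 0.08) and FKBP10 (1.81, SE 0.06), and the cytosolic exchange factor gene HSPBP1 (-0.47, SE 0.12) negative, in the authors' deposited table. Of 4 further membrane-bound factors and their escort proteins 3 were positive, among them SCAP (1.27, SE 0.07), the escort of sterol-sensing factors, and CREB3L1 (1.63, SE 0.10), by the authors' deposited table.

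Of 29 degradation genes outside the list 14 were positive and 10 negative, with a median of 0.13. FAM8A1, a cofactor of the SYVN1 ligase, lay at 3.63 (SE 0.08) and HM13, a signal peptide peptidase, at 1.27 (SE 0.06) by the authors' deposited table. Negative were the ubiquitin-conjugating enzyme UBE2J2 (-1.46, SE 0.07) and the extraction ATPase VCP (-0.85, SE 0.05) by the authors' deposited table. UFD1 (-0.50, SE 0.06) and NPLOC4 (-0.53, SE 0.06), the adaptors that VCP uses at the ER, were negative too in the authors' deposited table and were chosen after their values were seen. MARCHF6 (0.38, SE 0.06, positive) has another name in the annotation used and was left out of the splits by segment. Of the 17 degradation genes outside the list with a hydrophobic segment 12 were positive and 4 negative. Of the 11 without one, 1 was positive and 6 negative. Both are near the shares of abundant genes, since 70.6% of the 17 were positive, against 59.2% of abundant genes with a segment, and 54.5% of the 11 were negative, against 62.6% of those without one.

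Of 6 ER stress effectors downstream of PERK and related kinases 4 were negative and 1 positive, with a median of -0.47. All 6 lack a hydrophobic segment. Of abundant genes without one 62.6% were negative, with a median of -0.37, and of all coding genes without one 38.9%, with a median of -0.18. The 66.7% of the effectors is near the first share and above the second. CHAC1, with a mean count of 572, and DDIT3 are not among the abundant genes. ATF4, the transcription factor that PERK signalling induces, lay at -0.38 (SE 0.06, adjusted p = 1.3e-08) by the authors' deposited table. PPP1R15A, which resets PERK signalling, lay at -1.33 (SE 0.06) and SESN2, a stress-induced regulator of mTORC1, at -1.64 (SE 0.07), while TRIB3 lay at 0.28 (SE 0.10, adjusted p = 0.012), by the authors' deposited table. DDIT3, the death-linked factor of this branch, had a mean count of 2.26 in the authors' deposited table and did not pass (adjusted p = 0.831). Other genes share 39.6% of the exon bases of DDIT3, and how such overlaps were counted is not given. Its low count is therefore not read as its expression.

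**Figure D4:**
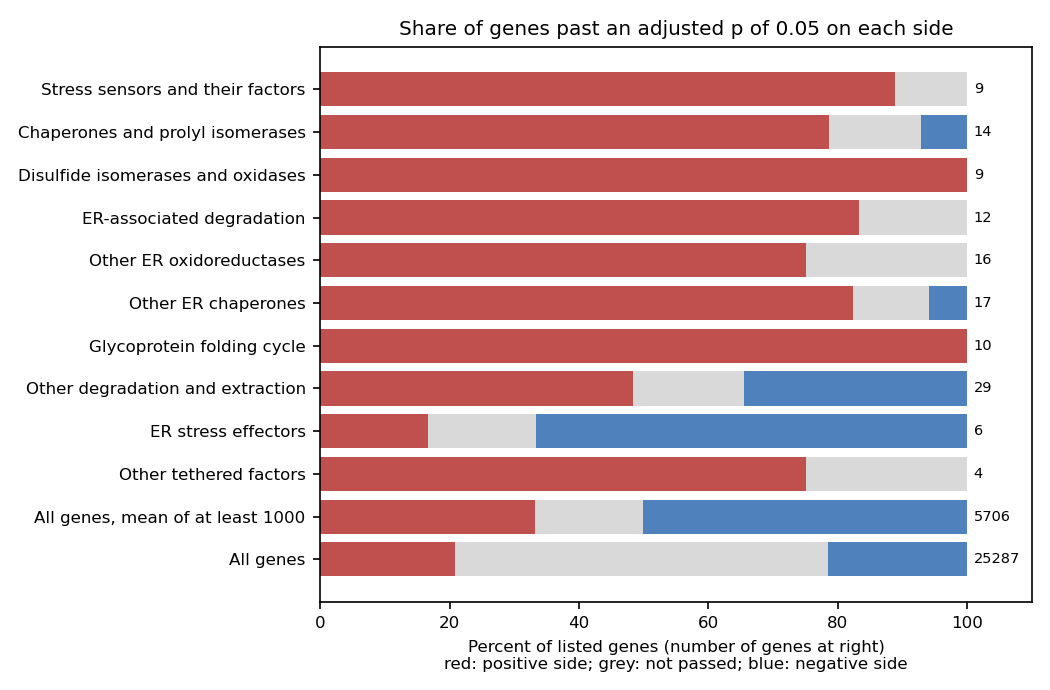
Percent of listed genes (horizontal axis) that passed an adjusted p of 0.05 on the positive side (red), did not pass (grey) or passed on the negative side (blue), for the 4 arms, 6 lists of other ER genes, genes whose mean count reached 1000 and all genes. Numbers at the right give the genes per row. The isomerases and the glycoprotein folding cycle are wholly red (100%), and the ER stress effectors are 66.7% blue.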

How the data were processed

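RNA of 6 libraries was reduced to 1 table by the authors. Reads were processed with fastp 0.23.2, STAR 2.7.10a, featureCounts and DESeq2 on hg38, per the submitters' processing notes, which give no role or setting. The authors' deposited mean normalized count is a signal averaged over libraries, per the file headers. The fold change and SE are log2 values and the Wald statistic a score, both deposited by the authors, with the base taken from DESeq2's usual output. Each p-value, raw or adjusted, is as deposited.

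No test per gene was added, since no values per library were analysed here. Repeated rows were dropped (25289 rows, 25287 genes). Recomputed Benjamini-Hochberg values differed from the deposited adjusted p by at most 1.39e-15. The code was tested on simulated data. Intervals of 95% are the fold change plus or minus 1.96 SE. Group levels follow from the mean and the fold change, with equal group sizes assumed. Exon lengths, overlaps and coding sequences come from GENCODE 29 (GRCh38), which may not be the authors' annotation. Of the 44 genes, 13 share over 10% of their exon bases with other genes there. Promoters come from RefSeq. Segments were searched for in each gene's longest coding sequence that had a start and a stop codon. Genes were named by rule: in each arm the 4 smallest adjusted p-values, every negative and every gene that did not pass, with related genes side by side. In each other ER list it took the 2 smallest adjusted p-values a side, and also DDIT3, ATF4, TRIB3 and PPP1R15A. Exceptions are marked. Genes and lists were chosen with earlier results of these data known. Alternatives were other thresholds, count minimums and 2 shifts of the fold changes. Python 3.11.15, pandas 2.3.3 and scipy 1.17.1 were used.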

Additional observations from a re-analysis of the deposited data

How the results depend on the processing

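No paired analysis was possible because the table holds 1 comparison with no values per library, and no library could be left out for the same reason. The positive counts stayed within 1.5 times of those reported with an adjusted p under 0.01, an unadjusted p under 0.05, count minimums of 10 and 100 (the latter chosen after seeing the data) and both shifts. A log2 fold change of at least 1 left 16 positive and 0 negative of the 44, with 4 sensors, 3 chaperones (0 negative), 4 isomerases and 5 degradation genes positive, and 29 positive and 4 negative of the other ER genes. OS9 joined DNAJB9 on the negative side with an unadjusted p and with equal total counts, which made 2 negative genes in all and 1 in degradation. Equal total counts, a shift of 0.12, gave medians of 0.64 (all 44), 0.67 (sensors), 0.28 (chaperones), 0.79 (isomerases), 0.70 (degradation) and 0.64 (other ER genes). A mean of at least 100 gave 0.84 for all and 0.91 for degradation. DNAJC3 and DERL1 did not pass at 0.01. No gene of the 44 changed sign under these settings. With 1 mismatch among the 10 fixed letters, chosen after the exact matches were seen, 14 of 41 promoters held an ERSE, against 2.4% of genes. The median log2 fold change was 0.57 for those 14 and 0.89 for the rest of the 41. Values of FKBP2, OS9, DERL1 and DERL3 were imprecise, with mean counts under 100 and SE from 0.37 to 1.15, and the cause of the low counts was not tested.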

Other observations

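The position of the hydrophobic segment went with the side on which a gene lay. This split was made after the data were seen. Among other degradation genes with a segment, the 4 negative ones, UBE2J1, UBE2J2, RNF5 and RNF185, are those whose first segment starts within the last 60 residues of the protein, at 21 to 36 residues from its end. Of the 13 with a segment elsewhere, 12 were positive and none negative. Of all 357 genes with a segment only in the last 60 residues, 25.2% were positive and 29.7% negative, with a median of -0.06, and of 5241 with one elsewhere, 38.1% and 15.9%, with a median of 0.32. Those with a segment only in the last 60 residues and a mean count of 1000 or more were positive in 31.8% and negative in 55.0% of 129 cases, with a median of -0.31. Genes of that abundance with a segment elsewhere were positive in 61.2% and negative in 25.1% of 1726 cases, with a median of 0.45. Such genes with no segment, at 19.2% positive and 62.6% negative, lie nearer to the first of these groups. All 34 of the ER folding and degradation genes with a segment have it outside the last 60 residues. TXNDC15 (1.09) and QSOX2 (0.46), whose first window also starts in the last 60 residues, were positive in the authors' deposited table.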
